A study of Mus musculus with 8 samples.

Results

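m6A summits were examined in the transcripts of 35 genes that encode nuclear receptors (28 genes) and their coregulators (7 genes), out of 55450 annotated mouse genes. N6-methyladenosine (m6A) is a methyl mark on adenosine in RNA, and a summit is the position of highest enrichment within a called peak. A summit belonged to one of these genes when it fell in an annotated exon of that gene. The genes are a list of names, and the rule itself uses no m6A value. In all, 154 of 42744 summits lay in these genes.

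Primary vascular smooth muscle cells (VSMCs), which make up the muscular layer of arteries, were taken from the descending aorta of C57BL/6J mice and transduced with lentivirus that expressed a nontargeting control hairpin against a plant microRNA sequence (shCTR) or a hairpin against Mettl14 (shMettl14). METTL14 is the RNA-binding partner of METTL3 in the complex that writes m6A. The RNA was fragmented and precipitated with an antibody against m6A (IP), and each of the 4 IP samples, replicates A and B of each shRNA, had 1 list of peaks called against its own input. Both groups had received a virus, 1 Mettl14 hairpin was used, and no untransduced cells were among these samples.

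The 2 shCTR lists had 11158 (A) and 8655 (B) summits and the 2 shMettl14 lists 13675 (A) and 9256 (B), with a median of 16, 16, 14 and 13 overlapping IP fragments per summit. Where 4 values follow each other below, they are in this order. No list had a summit in an exon of Mettl14 (ENSMUSG00000028114.16), and peaks say nothing of the amount of a transcript, so that the knockdown was not checked here. For the same reason, a gene without m6A and a gene with little or no transcript cannot be told apart when there is no summit. Of 8 smooth muscle markers, Lmod1 and Cald1 had a summit in all 4 lists, Myh11 in 3 lists and Acta2, Tagln, Cnn1, Smtn and Tpm1 in none. Of 6 endothelial markers, Pecam1 and Cdh5 had a summit in all 4 lists and Kdr in fewer, with 93, 109, 46 and 70 fragments at the strongest Cdh5 region. The 4 blood cell markers had no summit, and of 4 fibroblast markers Pdgfra had one in all 4 lists. The study's methods describe mechanical removal of the endothelium before the cells were grown out. The part of endothelial cells in the values below was not tested, and in such bulk samples fewer cells of a type cannot be told apart from less RNA per cell.

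Nuclear receptors are transcription factors whose activity is set by small lipophilic ligands such as steroids, retinoids, thyroid hormone, oxysterols and fatty acids, although several members are orphans without a known physiological ligand. Many bind DNA as dimers, often with a retinoid X receptor, and switch between corepressors that silence a target and coactivators that open it. In VSMCs, receptors such as the glucocorticoid receptor, PPARs, NR4A factors and retinoic acid receptors are known to influence proliferation, inflammation and the contractile phenotype.

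The m6A complex methylates adenosine within the motif DRACH, in which D stands for A, G or T, R for A or G, and H for A, C or T. To show where the mark could lie in the genes with the strongest summits, the DRACH nearest to the median summit of the strongest region is given with 10 bases on either side. A region is a set of peak intervals of the lists that share at least 1 bp, and the strongest region of a gene is the one with the highest mean percentile. Sequences are from the GENCODE M21 transcripts of GRCm38, 5′ to 3′ on the transcript strand, with the motif in capitals. Rara has a site for each of its 2 groups of summits, because the summits lay on either side of the stop codon.
Nrip1, chr16:76291397-76291421, minus strand, coding: accacacaagAAACCcaggacaaag
Ncoa2, chr1:13174342-13174366, minus strand, coding: ttggccaagcTGACAgcagaagcca
Rora, chr9:69379171-69379195, plus strand, 3′ UTR: aatcaaagctGAACTtgttttgctc
Nr2f2, chr7:70354593-70354617, minus strand, 3′ UTR: aaaaggcaaaAGACTggttttgttt
Nr1d2, chr14:18215112-18215136, minus strand, coding: atttaaatcaAGACCatcgtggcag
Ppard, chr17:28299897-28299921, plus strand, 3′ UTR: actgttcagaGGACCagccacaggc
Ncor1, chr11:62317660-62317684, minus strand, 3′ UTR: aaatgggaaaAAACAaacaaaaaaa
Rara, chr11:98973498-98973522, plus strand, coding: ctgagggcttGGACActctaagcgg
Rara, chr11:98973803-98973827, plus strand, 3′ UTR: gacccaagatGGACTgccctcttcc

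These are matches of letters and not mapped sites, since several DRACH lay within 50 nt of most of these summits (1 in Nr2f2, 2 in Nr1d2, 3 in Rora, 4 in Ncoa2, Ppard and Ncor1, and 5 in Nrip1). The motif nearest to the Nr2f2 summits was 31 nt upstream of their median and that nearest to the Ncor1 summits 36 nt downstream. DRACH lay within 50 nt of 146 of 149 summits in the chosen coding transcripts of the 35 genes (98.0%), against 95.2% of 34537 such summits of all genes. Of all positions of the same transcripts of these genes, 85.1% also had one that near.

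The letters GGACT, 1 of the forms of DRACH, were less common and are shown where they lay within 50 nt of the median summit of a region found in all 4 lists, which was so in 4 of 18 such regions searched (the region of Nr3c1 was not searched). The Rara region was searched around the median of its strongest summits, which falls between its 2 groups of summits. The GGACT printed above for its downstream summits is therefore not among the 4. In Rxra and Ncoa1 a second GGACT lay near the one printed.
Ncoa2, chr1:13174356-13174380, minus strand, coding: gttcccctgtGGACTtggccaagct
Ppard, chr17:28299885-28299909, plus strand, 3′ UTR: gcccagccacGGACTgttcagagga
Rxra, chr2:27760600-27760624, plus strand, 3′ UTR: gctctgtgtgGGACTctagcatggg
Ncoa1, chr12:4295496-4295520, minus strand, coding: gcaagcctctGGACTcaggacttct

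GGACT lay within 50 nt of 13 of 41, 9 of 30, 14 of 48 and 9 of 30 summits of the 35 genes in the 4 lists. Over all lists that was 45 of 149 (30.2%), compared with 21% for summits of all genes. GGACT was about equally frequent along the transcripts themselves, near 11.1% of the positions in the 35 genes and 10.6% in all genes. The summits of 1 gene share its sequence, and the difference between 30.2% and 21% was not tested.

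To ask which receptor and coregulator transcripts carried m6A, genes with a summit were counted. A summit was found in 19 of the 35 genes in at least 1 list, compared with 25.6% of 21515 genes with a complete coding transcript, and in 15 genes in all 4 lists, compared with 16.1%. By role, 14 of 28 receptor genes and 5 of 7 coregulator genes had a summit, and 10 and 5 of them had one in every list. The chosen transcripts of the 19 genes with a summit had a median length of 4663 nt and those of the 16 without 3032 nt, against 2576 nt for all genes and 3811 nt for all genes with a summit. No summit of these genes also fell in an exon of another gene.

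The genes without a summit in any list were Nr1d1, Nr1h2, Nr2c1, Nr3c2, Nr4a2, Nr4a3, Rarb, Rarg, Rxrb, Ppara, Pparg, Thra, Vdr, Esrra, Ppargc1a and Ppargc1b. They include paralogs of genes that did have summits in all 4 lists. Among the REV-ERB clock repressors, Nr1d2 had summits and Nr1d1 had none. Among the retinoic acid receptors, Rara had summits and Rarb and Rarg had none. Ppard had summits and Ppara and Pparg had none, Rxra had summits and Rxrb had none, and of the NR4A immediate early factors Nr4a1 had summits and Nr4a2 and Nr4a3 had none.

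Nrip1, which encodes the corepressor RIP140, was the gene with the highest rank. Its strongest region (GRCm38 chr16:76291043-76291884) spanned the stop codon in its last exon, exon 4, which is 7616 nt long. The strongest summits lay in the coding sequence, at -282 to -234 nt from the stop codon. The pileup, the number of IP fragments over the summit, was 37 and 29 in shCTR A and B, and 38 and 27 in shMettl14 A and B. The percentile of its fold enrichment among all summits of the list (100 is highest) was 99.5, 97.3, 99.8 and 97.2. The A lists were above the B lists in both groups, and the groups overlapped. Further upstream in the same exon, chr16:76294153-76294800 had 23, 21, 25 and 21 fragments, at percentiles 86.4, 75.5, 90.5 and 79.2.

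Ncoa2, a p160 coactivator that recruits histone acetyltransferases, followed. Its strongest region (chr1:13174105-13174854) lay in exon 11 of 23, an internal coding exon of 1270 nt, at -2302 to -2240 nt from the stop codon. Pileups were 30, 43, 38 and 27, at percentiles 91.4, 98.8, 98.2 and 97.2. The lowest and the highest percentile were both in shCTR. Its paralog Ncoa1 also had its region in a long internal coding exon (exon 9 of 19, 1339 nt; chr12:4295290-4295607), with only 12, 10, 9 and 7 fragments at percentiles 70.2, 43.9, 47.2 and 32.2. Ncoa3, the remaining p160 gene, had a summit in every list but no region in all 4. One of its regions, in exon 12, had 6, 10 and 10 fragments in shCTR B, shMettl14 A and shMettl14 B, and another in the same exon had 13 and 14 in the A lists alone.

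Ncor1, the scaffold of a histone deacetylase corepressor complex, had 2 regions in all 4 lists that differed in rank. The 3′ UTR region (chr11:62317491-62317887) had its summits 89 to 169 nt past the stop codon. It had 39, 17, 19 and 21 fragments at percentiles 95.9, 65.1, 83.3 and 88.2. The coding region in exon 20 of 46 (chr11:62373122-62373380) had 23, 21, 14 and 24 fragments but stood at percentiles 1.25, 20.4, 7.52 and 13.2 of fold enrichment, which is set against the local background. For the 3′ UTR region both shMettl14 values lay between the shCTR values in pileup and in percentile.

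Rora encodes RORα, an orphan receptor that activates the clock elements REV-ERBs repress. Its region (chr9:69378862-69379423) spanned the stop codon in a last exon of 9450 nt, and the summit with the highest fold enrichment in each list lay 205 to 281 nt past it. At these summits pileups were 29, 23, 26 and 18 and percentiles 93.9, 90.5, 96.7 and 88.7, so that both shCTR percentiles lay between the shMettl14 percentiles. Weaker Rora summits were called at -54 and 107 nt in shMettl14 A and at 86 nt in shMettl14 B. Nr1d2, which encodes REV-ERBβ, had its region (chr14:18214890-18215352) in coding exon 5 of 8, with 30, 32, 30 and 24 fragments at percentiles 86.5, 94.5, 86.4 and 92.5. A second Nr1d2 region near the stop codon was called in the A lists alone.

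Nr2f2, encoding the COUP-TFII orphan receptor known for its role in venous identity, had 4 summits in shCTR A and 3 in each other list, in 3 regions. The strongest (chr7:70354323-70354713) had its highest summits 71 to 97 nt past the stop codon, with 33, 34, 31 and 31 fragments at percentiles 89.4, 96.6, 87.9 and 93.9. A 5′ UTR region (chr7:70360418-70360976) had 16, 10, 10 and 6 fragments at percentiles 58.3, 23.1, 42.9 and 17.2. In both regions the groups overlapped in percentile. The third region (chr7:70357930-70358274, coding exon 2 of 3) was called in both shCTR lists and in neither shMettl14 list, and it was the only such region among the 35 regions of these genes. It was weak in both shCTR lists, with 17 fragments in shCTR A (95% Poisson interval 9.90 to 27.2) and 7 in shCTR B (2.81 to 14.4), at percentiles 11.6 and 4.36. Across all genes, 1.71% of 11361 regions had this pattern. The reverse pattern was seen in 0 regions of these genes and in 1.79% of all regions.

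The other COUP-TF genes also had a region in all 4 lists. Nr2f6, encoding the repressor EAR2, had one in coding exon 1 of 4 (chr8:71381073-71381574), with 45, 60, 36 and 33 fragments at percentiles 67.1, 95, 76.8 and 67.7. Its shCTR percentiles spanned the shMettl14 percentiles, while both shMettl14 pileups lay below both shCTR pileups. Nr2f1 (COUP-TFI) had one 141 to 242 nt past the stop codon (chr13:78189397-78189717), with 7, 22, 10 and 11 fragments at percentiles 43.3, 96.1, 61.5 and 67.0. The 2 shCTR lists thus stood at either end, and the 95% Poisson intervals of their pileups (2.81 to 14.4 and 13.8 to 33.3) overlapped slightly.

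Ppard, a fatty acid receptor, had 1 region (chr17:28299806-28300010), with its summits 62 to 95 nt past the stop codon. It had 34, 27, 29 and 29 fragments at percentiles 96.6, 81.1, 84.8 and 95.1. The heterodimer partner Rxra had 2 regions far into its 3′ UTR. The nearer one (chr2:27760508-27760789, 919 to 964 nt past the stop codon) had 13, 13, 14 and 11 fragments at percentiles 41.0, 52.7, 67.8 and 51.9. The other (chr2:27762139-27762908) had 24, 15, 17 and 12 at percentiles 86.5, 29.7, 77.4 and 51.1. The first 3 of these values are from summits 3129 to 3162 nt past the stop codon and that of shMettl14 B is from another summit, at 2631 nt, so they do not come from the same site. In the 3 regions the groups overlapped, and the last had its highest and its lowest percentile in shCTR.

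Nr3c1 encodes the glucocorticoid receptor. Its region (chr18:39486067-39487308) lay over a coding exon of 1235 nt and held 5, 3, 6 and 3 summits. The summits with the highest fold enrichment had 35, 31, 36 and 27 fragments at percentiles 51.6, 82.0, 75.3 and 81.1, and lay apart from each other, at -1606, -1335, -1584 and -1971 nt from the stop codon. The most fragments at any Nr3c1 summit were 49, 49, 40 and 27. The chosen transcript of Nr3c1 has no annotated UTR, and a weak summit of 8 fragments in another exon was called in shCTR A alone. Of the other steroid receptors, Esr1 (estrogen receptor α) had 11 fragments in shCTR A and 3 in shMettl14 B in its 3′ UTR and no summit in the other lists.

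**Figure D1:**
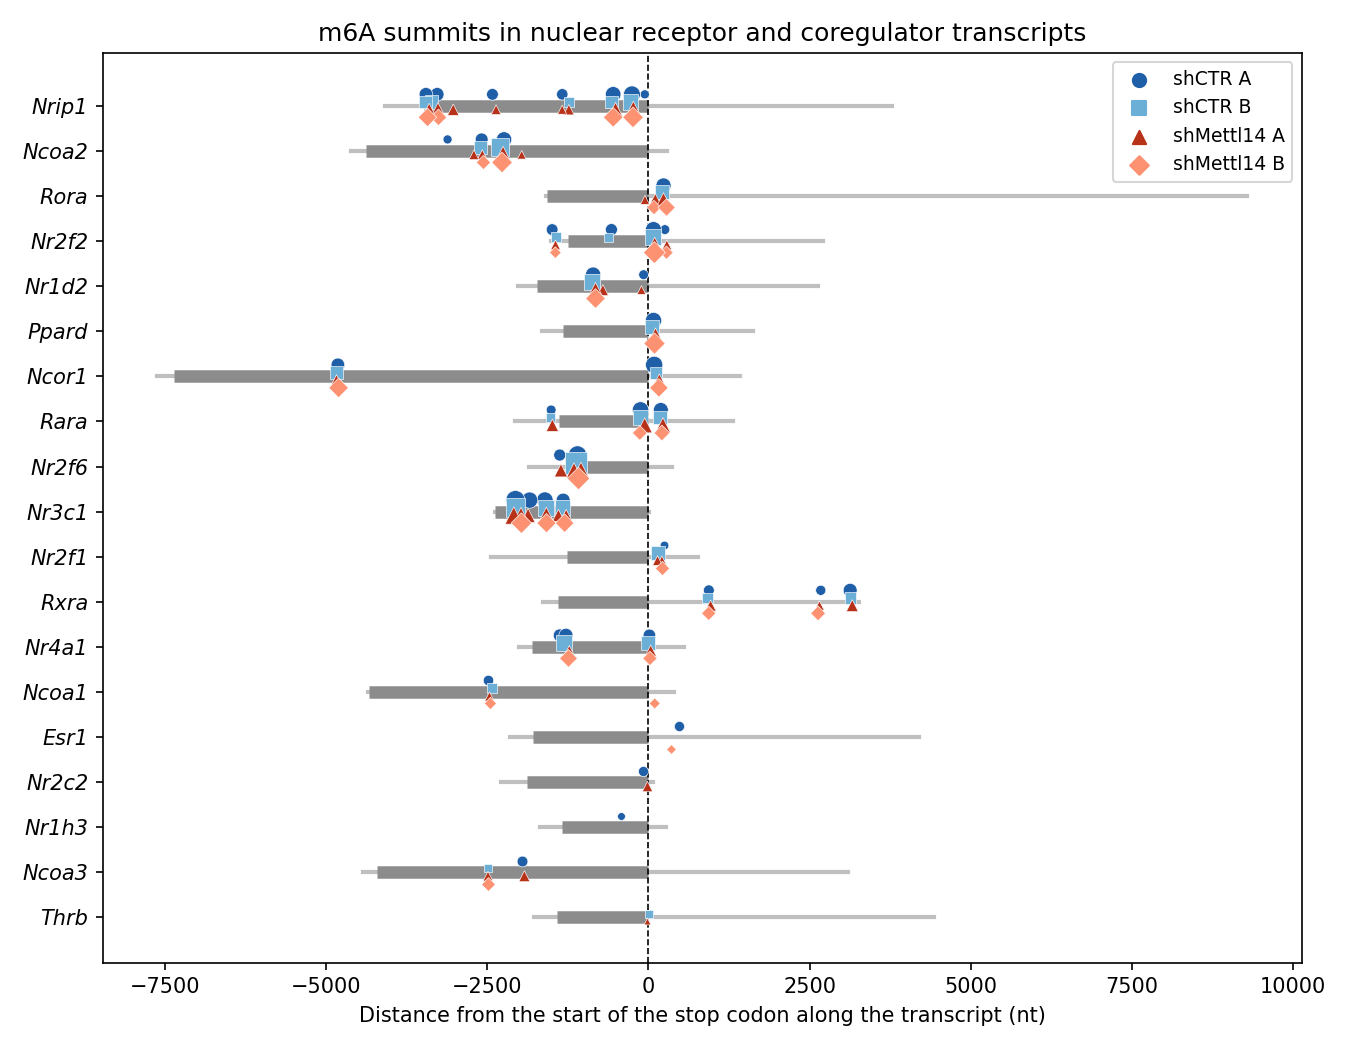
Summits of the 19 genes with a summit, placed along the chosen transcript of each gene by distance from the first base of the stop codon in nt (dashed line at 0). Dark bars mark the coding sequence and light lines the UTRs, symbols mark the list, and a larger symbol marks a higher pileup. Summits of Ppard, Nr2f1 and Rxra lie past the stop codon, as do those of Rora apart from 1 in shMettl14 A at -54 nt, and those of Nr2f6, Nr3c1, Ncoa2 and Nrip1 lie upstream of it.

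Nr4a1 (NUR77, an immediate early factor) had a region in coding exon 3 of 8 (chr15:101270344-101270732) and one at its stop codon (chr15:101274158-101274489). The first had 25, 35, 12 and 19 fragments, at percentiles 57.7, 77.6, 34.97 and 65.1. The second had 19, 23, 15 and 11 fragments, at percentiles 10.7, 37.3, 28.8 and 2.28. In both regions the pileups of the 2 shMettl14 lists lay below those of the 2 shCTR lists, and the percentiles overlapped. Unscaled pileups were ordered this way in 5 of 19 regions of these genes tested and in 37% of all regions tested.

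Rara, encoding retinoic acid receptor α, had 2 summits in each list around its stop codon, in 1 merged region (chr11:98973354-98974036). The upstream summits lay at -123, -120, -58 and -134 nt from the stop codon. They had 35, 30, 29 and 12 fragments, at percentiles 91.3, 78.3, 81.9 and 29.3. The downstream summits lay 182 to 225 nt past the stop codon and had 28, 23, 30 and 14 fragments, at percentiles 75.4, 70.3, 93.6 and 51.5. By pileup and percentile, the upstream summit was the higher one in both shCTR lists and the downstream one in both shMettl14 lists. In shMettl14 the pileups were close, at 29 against 30 in A and 12 against 14 in B. In every list the lower pileup lay within the Poisson interval of the higher one. These intervals were 24.4 to 48.7, 20.2 to 42.8, 20.2 to 42.8 and 7.65 to 23.5. Whether this order goes beyond counting error was not tested. A normal score is the rank within the list, among regions found in every list, on a standard normal scale. Its change, shMettl14 minus shCTR, was taken with summits within 100 bp chained in place of merged intervals. It was -1.03 ± 0.53 (SE) for the upstream summits (limma, unadjusted p = 0.0607, adjusted p = 0.928). For the downstream ones it was 0.18 ± 0.53 (limma, unadjusted p = 0.733, adjusted p = 0.995). Neither change was past the threshold, and their difference was not tested. Rara also had a 5′ UTR region with 10, 9 and 18 fragments in shCTR A, shCTR B and shMettl14 A and no summit in shMettl14 B.

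The remaining receptors with a summit rested on few fragments. Thrb (thyroid hormone receptor β) had 5 in shCTR B and 3 in shMettl14 A, Nr1h3 (LXRα, an oxysterol receptor) had 5 in shCTR A alone, and Nr2c2 (TR4, an orphan receptor) had 11 and 12 in the A lists. These summits were not called in all 4 lists and were therefore not tested.

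**Figure D2:**
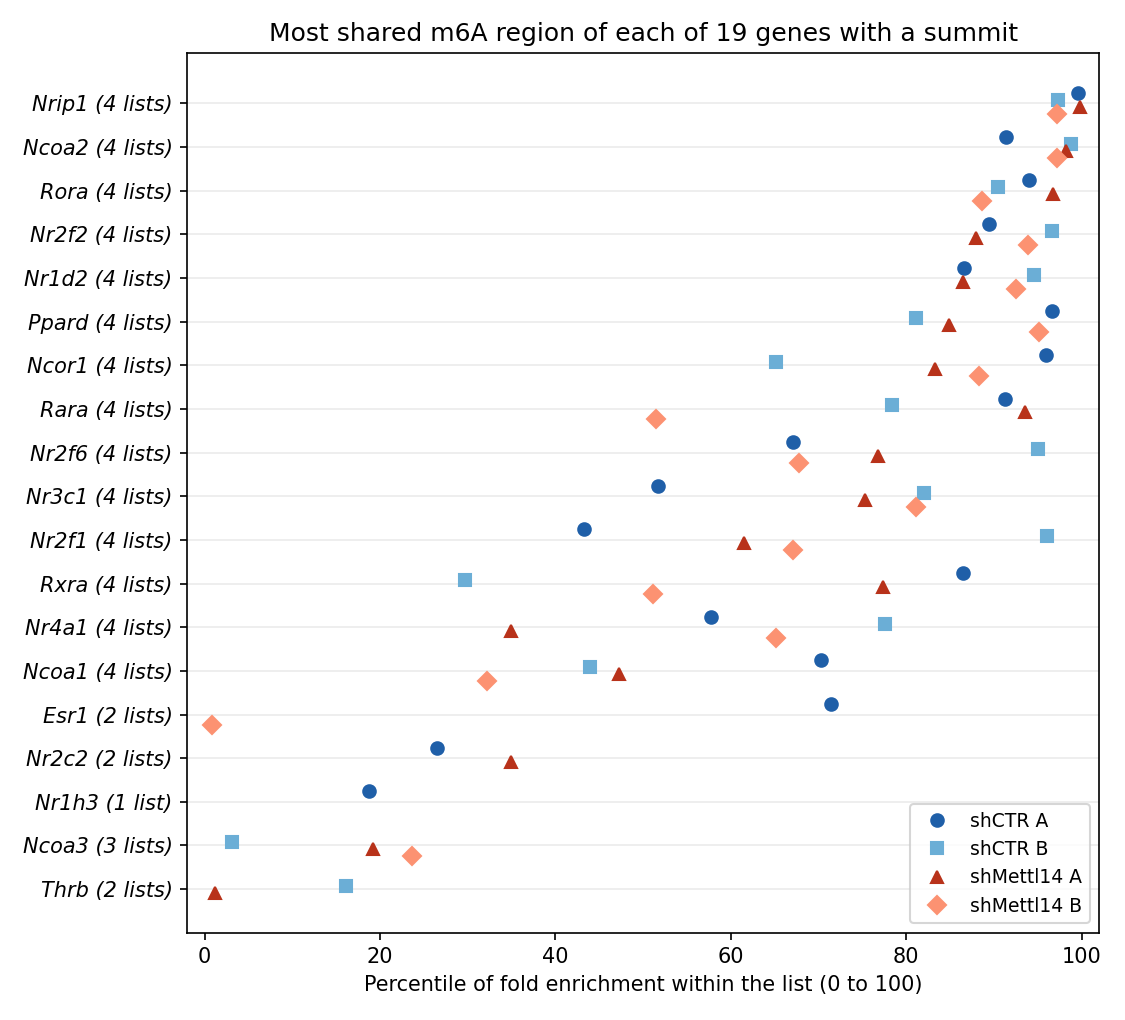
Percentile of fold enrichment within its list (horizontal axis, 0 to 100) for 1 region of each of the 19 genes with a summit, the one found in the most lists and, among those, with the highest mean percentile. Each symbol is 1 list, with no symbol where the region was not called. Nrip1 stands above 97 in every list, and the 2 shCTR values of Nr2f1, 43.3 and 96.1, span its shMettl14 values.

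To ask whether m6A at these genes changed rank after Mettl14 knockdown, the 19 regions found in all 4 lists were compared. They came from 14 genes. The highest fold enrichment of each region was ranked within each list, among the 4929 regions found in all 4 lists. The rank was turned into a normal score (the value a standard normal variable has at that rank). The percentiles, in contrast, rank a summit among all summits of its list, so the 2 measures can differ in direction. The scores of shMettl14 and shCTR were compared with limma over all 4929 regions. Of the 19 regions, 0 had an adjusted p under 0.05, as did 0% of all regions tested, and 0 had an unadjusted p under 0.05, against 4.93% of all. The changes ran from -0.53 ± 0.54 (SE) in Nr2f6 to 0.35 ± 0.50 in the nearer Rxra region, with a median of -0.09 against 0.00 for all regions. The smallest unadjusted p was 0.331 (Nr4a1, exon 3) and each adjusted p was 0.999. The change was below 0 in 11 regions and above 0 in 8, against 49.9% and 50.1% of all regions.

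In none of the 19 regions did the percentiles of the groups separate, while both shMettl14 percentiles lay below both shCTR percentiles in 14.3% of all regions tested and above them in 17.3%. Nr2f1 depended on single libraries. Without shCTR A its change was -1.66 ± 0.67 (unadjusted p = 0.0129, adjusted p = 0.745, limma), and without shCTR B it was 0.65. For Nr3c1, the change was 0.29 for the merged region and 0.0896 with chained summits.

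Fisher's exact test on the summed pileups of each shRNA, scaled over all shared regions, also had 0 regions of these genes at an adjusted p under 0.05 (0% of all). It compares these libraries and not cultures. The exon 3 region of Nr4a1 alone had an unadjusted p under 0.05, against 3.21% of all regions (log2 ratio of shMettl14 to shCTR -0.65, exact p = 0.0449, adjusted p = 1). The log2 ratios of the 19 regions ran from -0.65 to 0.37, with 9 below 0 and 10 above 0.

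The SEs of 0.50 to 0.60 leave room for changes of about 1 normal score or more in any of these regions. With 2 lists per group, no exact permutation test of 2 against 2 values can give a p under 0.333. Ranks also cannot show a loss of m6A that is the same at all sites, so these values do not show that m6A at these genes was unaffected.

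**Figure D3:**
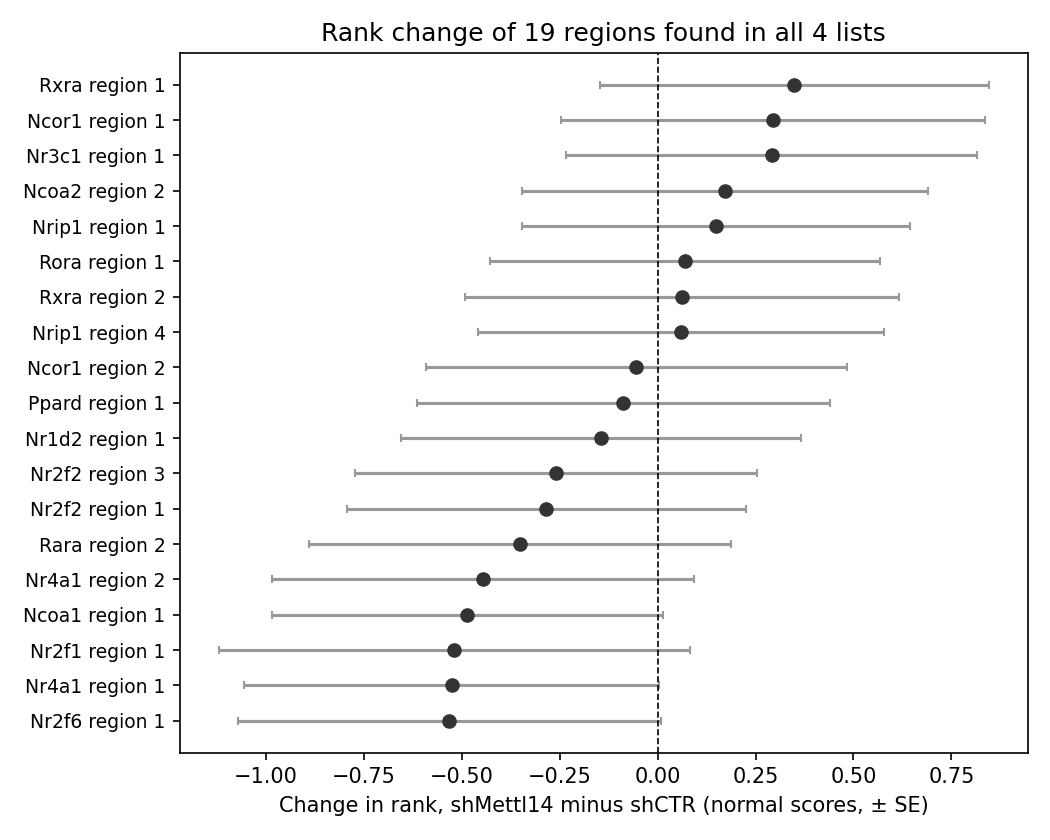
Change in normal score of fold enrichment, shMettl14 minus shCTR, for the 19 regions found in all 4 lists. Points are limma estimates and bars 1 SE on either side, with a dashed line at 0. The estimates run from -0.53 in Nr2f6 to 0.35 in Rxra, and no adjusted p was under 0.05.

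The regions were mostly shared between the groups. Of the 35 regions of these genes, 19 were in all 4 lists (43.4% of all 11361 regions were), 17 of them also in the authors' overlap intervals of both shRNAs, 4 in 3 lists, 7 in 2 lists and 5 in 1 list. The 5′ UTR region of Rara, a weak region of Ncoa1 outside its chosen transcript and a coding region of Nrip1 were missing from shMettl14 B alone. Regions of Nr1d2, Nr2c2, Ncoa3 and Nrip1 were called in both A lists and in neither B list, and the A lists were the longer ones.

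The number of summits in these genes was 44 and 31 in the shCTR lists and 49 and 30 in the shMettl14 lists, or 37.5 ± 9.19 against 39.5 ± 13.4 (mean ± SD, n = 2 lists each). Per 1000 summits of the list there were 3.94, 3.58, 3.58 and 3.24, or 3.76 ± 0.256 against 3.41 ± 0.242. The groups overlapped in both measures. The difference of 2 summits per list depended on the setting. It was -0.5 with a −log10 q of at least 5, -3.5 with equal numbers of top summits per list and -3 by distinct intervals. In the chosen transcripts only it was 3.5. With each list left out it ran from -7.5 without shMettl14 A to 11.5 without shMettl14 B. Genes with a summit numbered 18, 16, 17 and 16.

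m6A is known to be enriched around stop codons and in long exons. In the strongest regions of the 14 genes, the summits with the highest fold enrichment lay in coding sequence in 7, in the 3′ UTR in 6 and on either side of the stop codon in 1, that of Rara. Within 200 nt of the stop codon lay 22.0%, 26.7%, 22.9% and 23.3% of the summits of these genes (24.3 ± 3.33% against 23.1 ± 0.295%), a difference smaller than the spread between the shCTR lists. The share over all lists was 23.5%, against 26.4% for all genes and 8.88% of the positions of the same transcripts.

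The coding sequence held 62.4% of the summits of these genes and the 3′ UTR 31.5%, against 66.1% and 31.3% for all genes. The 5′ UTR held 6.04%, or 9 summits, against 2.59%, and those 9 were in Nr2f2, Rara and Nr2f6. The last exon held 55.0% against 64.2%, and exons over 400 nt other than the last held 43.6% against 34.1%. The Nrip1 region near its stop codon is an example of the first of these kinds, and the strongest regions of Ncoa1, Ncoa2, Nr1d2, Nr2f6 and Nr3c1 are examples of the second. Exons over 400 nt of either kind held 97.3% of the summits, against 97.8% for all genes. These shares are descriptions, since summits of 1 gene share its exon structure.

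**Figure D4:**
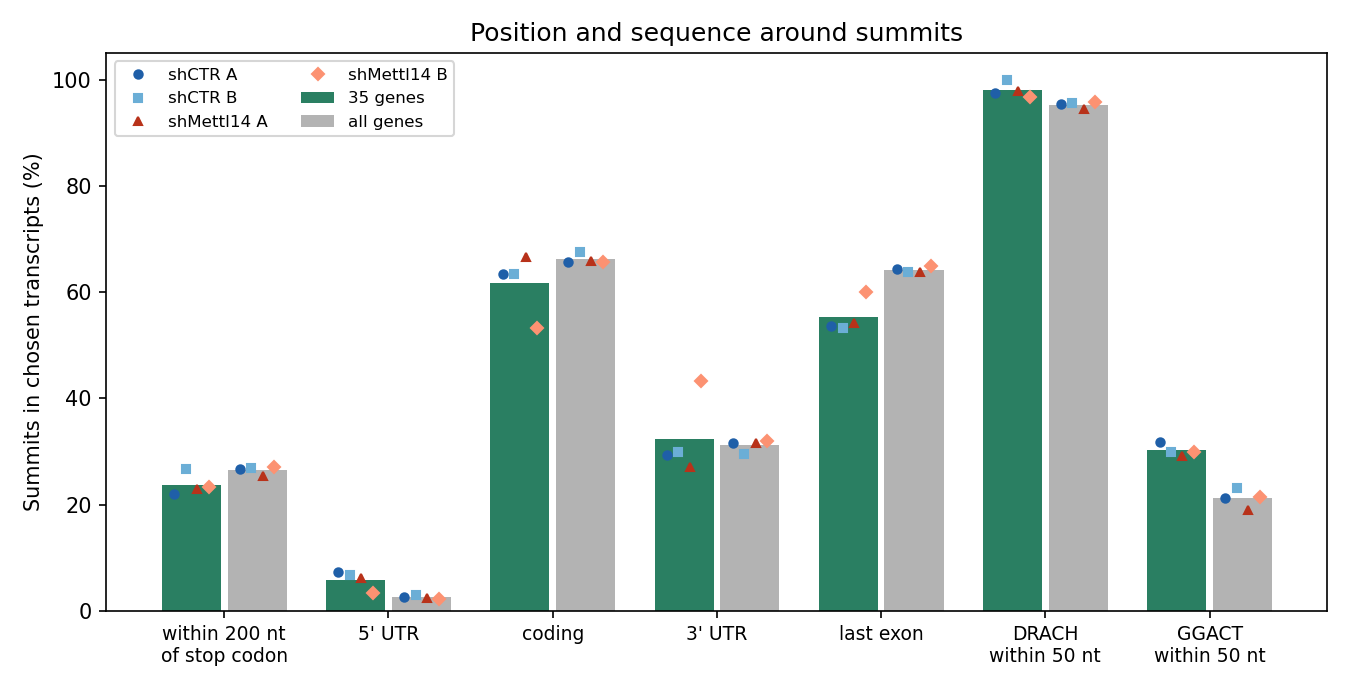
Percent of summits in the chosen transcripts (vertical axis) that lie near the stop codon, in each part of the transcript, in the last exon, or near a motif. Bars are the mean of the 4 lists for the 35 genes and for all genes, and symbols are single lists. The 35 genes lie above all genes for GGACT (29.2% to 31.7% per list) and below them for the last exon.

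The rest of the pathway was described by a list of 71 other genes, of which 24 had a summit and 16 had one in all 4 lists, against 25.6% and 16.1% of all genes with a complete coding transcript. Of 16 other coregulators, 12 had a summit and 11 had one in all 4 lists, among them the acetyltransferases Crebbp and Ep300 and the Mediator subunit Med1. The strongest Crebbp region (chr16:4179437-4180174) had 43, 41, 41 and 32 fragments, with percentiles of 97.3 to 98.4. Of 20 other receptors, 3 had a summit and 1 had one in all 4 lists. Of 18 enzymes and binding proteins for ligands 2 had a summit, and of 17 target genes 7 did, with the cholesterol exporter Abca1, the phosphatase gene Dusp1, Klf9 and Cpt1a in all 4 lists. Of the 26 regions of the list that were tested, 0 had an adjusted p under 0.05 (0% of all regions) and 0 an unadjusted p under 0.05 (4.93% of all regions), with a median change of 0.01.

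Regions called in both shCTR lists and in neither shMettl14 list made up 2 of the 43 regions of the pathway list, against 1.71% of all regions. Tbl1xr1, a subunit of the NCoR complex, had 17 and 9 fragments in a 3′ UTR region (chr3:22210400-22210783). Pdk4, a kinase gene induced by PPARs and glucocorticoids, had 13 and 11 in its 3′ UTR (chr6:5485198-5485441). The reverse pattern was seen in 0 regions of the list.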

How the data were processed

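m6A-RIP-seq of 4 IP and 4 input samples was analysed, with groups and replicate letters taken from the sample titles. Per the submitters' processing notes and the study's methods, the authors aligned reads to mm10 with STAR, selected reads with a single alignment by SAMtools, and used MACS2 to call peaks in every IP sample relative to its input. The versions and options of these tools are not given in the sources used here. The deposited lists hold, for each summit, a fold enrichment (a ratio of IP to local background) and −log10 p and −log10 q, the smallest −log10 q being 2.01 in each list. The authors also deposited 2 files of intervals, 1 per shRNA, for the overlap of both replicates, with no values. Pooling was thus limited to these files.

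MACS2 adds 1 to the pileup and to the background before it takes their ratio, and its p is a Poisson probability. These relations were solved for the whole-number pileup, with an error of at most 0.000151 in −log10 p. Pileup intervals are exact 95% Poisson intervals and cover counting error only, since PCR copies are not independent molecules. Totals of reads were not analysed here.

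Summits were placed with GENCODE M21 (GRCm38), using per gene the complete coding transcript with the longest coding sequence (21515 genes) for positions and motifs, and summits in such transcripts of several genes (408) were left out. Of the 154 summits, 5 lay outside the chosen transcripts. Intervals sharing at least 1 bp were merged into 11361 regions. limma 3.58.1 (R 4.3.3, lmFit and eBayes, two-sided, no replicate block, Benjamini-Hochberg over 4929 regions, threshold 0.05) compared normal scores, and was tested on simulated data. The A minus B differences of the groups correlated at r = 0.08 across regions, so the letters were not taken as pairs. The labels do not say that replicates are separate cultures, so p-values measure the spread between these samples only. Fisher's exact test, which the methods name, needs counts and was run on the recovered pileups. Alternatives were other measures of enrichment, thresholds, region definitions, windows, a replicate block and leaving out each list. Tables were made in Python 3.11.15 with scipy 1.17.1 and pandas 2.3.3.

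The genes, lists, tests and alternatives were chosen with earlier results of these data known, and ranking by pileup was added after seeing the data. Values per list are given for genes with a region in all 4 lists, a region specific to 1 shRNA, or an unadjusted p under 0.05. Other genes were added after their values were seen. Sequences are shown for the 10 genes of highest mean percentile, except for Nr3c1 and Nr2f6, whose sequences are not reported here, and the second set after its positions were seen.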

Additional observations from a re-analysis of the deposited data

How the results depend on the processing

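No region of these genes reached an adjusted p under 0.05 under any of the alternatives run, and the number at an unadjusted p under 0.05 was 0 in each fit but 2, at 1 by Fisher's exact test (Nr4a1, exon 3) and 0 to 1 when each list was left out in turn. The letters A and B were not taken as pairs, and with the replicate block the count stayed at 0. Each shRNA had both letters, so the block could not alter the changes in rank, for example -0.53 in Nr4a1 exon 3. The number of regions called in both shCTR lists alone moved from 1 to 0 with summits of a −log10 q of at least 5 and to 2 with equal numbers of top summits per list (the stop codon region of Nr4a1 and a coding region of Nrip1, and no longer that of Nr2f2), and was 1 to 4 with each list left out. The number in both shMettl14 lists alone was then 0 to 1. The difference in the share of summits near the stop codon, -1.18 percentage points within 200 nt, was 5.81 within 400 nt and ran from -3.54 without shCTR A to 1.17 without shCTR B, so that 1 library turned its sign. The difference in the share with DRACH, -1.49 points within 50 nt, was -12.8 within 25 nt, where the shares of the 4 lists were 78.0%, 100%, 79.2% and 73.3% and shCTR B alone stood apart. The causes were not tested.

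Directions of single changes were unstable. Ranked by −log10 p, by pileup and in the Fisher log2 ratio, the change of the coding region of Nr1d2 turned to 0.0121, 0.11 and 0.10, that of Ppard to 0.0926, 0.26 and 0.23 and that of the farther Rxra region to -0.0151, -0.16 and -0.12. The strongest Nr2f2 region turned to 0.21 by pileup and 0.19 in the Fisher ratio, the Ncor1 coding region to -0.00854 by pileup, Rora to -0.00536 on log2 fold enrichment and Rara to 0.18 for its downstream summits when summits were chained, while its upstream summits kept the direction (-1.03). The farther Rxra region had no chained counterpart in all 4 lists, and Nr3c1 moved from 0.29 to 0.0896. With each list left out in turn the changes ran from -0.49 to 0.20 in Nr1d2, -1.66 to 0.65 in Nr2f1, -0.68 to 0.11 in the Nr2f2 5′ UTR, -0.64 to 0.13 in its 3′ UTR, -1.28 to 0.24 in Nr2f6, -0.29 to 0.86 in Nr3c1, -1.03 to 0.00775 and -0.99 to 0.11 in the exon 3 and stop codon regions of Nr4a1, -1.04 to 0.33 in Rara, -0.73 to 0.88 in the farther Rxra region, -0.54 to 0.37 in Ppard, -0.19 to 0.31 in Rora, -0.38 to 0.71 in Ncoa2, -0.44 to 1.02 and -0.73 to 0.64 in the coding and 3′ UTR regions of Ncor1, and -0.0115 to 0.30 and -0.38 to 0.49 in the upstream and downstream regions of Nrip1. The nearer Rxra region stayed above 0 (0.11 to 0.61) and Ncoa1 below 0 (-0.76 to -0.19) in these fits. A fit that leaves 1 list in a group takes its spread from the other group.

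Depth limits these values. The share of summits of these genes that rested on 10 or fewer fragments was 20.5%, 25.8%, 30.6% and 20% in the 4 lists, in the order used above, and was higher over all summits in each list (27.7%, 27.5%, 32.04% and 36.1%).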
